A study of Caenorhabditis elegans with 12 samples.

Results

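The fatty acid desaturases of *C. elegans* are encoded by *fat-1* to *fat-7*, and their transcript levels were compared in whole young adults of 4 strains, with 3 RNA-seq libraries per strain. The members were taken by gene symbol and are 7 of the 46904 genes in the count files. All 7 passed the filter on low counts and were among the 15004 genes tested. The *gsr-1a trxr-2* double mutant carries *gsr-1a(syb266)* and *trxr-2(tm2047)* together, each single mutant carries 1 of these alleles, and the wild-type control carries neither. The *syb266* deletion removes the exon that targets glutathione reductase to mitochondria and leaves the cytosolic isoform, whereas *tm2047* is a null allele of mitochondrial thioredoxin reductase. Both alleles act in the whole animal. By the paper's methods, strains made by CRISPR-Cas9, as *syb266* was, had been outcrossed to wild type fewer times than its other mutant strains. Outcrossing of the double mutant is not described separately. Worms of all strains were synchronised, received no treatment, and were grown to young adulthood.

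Desaturases place double bonds in fatty acyl chains and so set the supply of unsaturated lipid for membranes, fat stores and signalling molecules. In *C. elegans* the delta-9 enzymes FAT-5, FAT-6 and FAT-7 introduce the initial double bond, FAT-5 into palmitic acid and FAT-6 and FAT-7 mainly into stearic acid to give oleic acid. FAT-2 then converts oleic to linoleic acid, FAT-1 makes omega-3 from omega-6 fatty acids, and FAT-3 and FAT-4 add the later double bonds of the long polyunsaturated chains. The delta-9 genes are known as targets of the nuclear hormone receptor NHR-49 and are expressed largely in the intestine.

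The libraries held 12114187 to 19688212 counts (median 16360615). Transcripts of *trxr-2* had 2 counts in the double mutant and 2 in the *trxr-2* mutant, summed over 3 libraries each, against 583 in the *gsr-1a* mutant and 706 in wild type. Counts over the whole *gsr-1* gene cannot show the loss of its first exon. The yolk protein genes took 1.79% of the counts in *trxr-2* replicate 1 and 0.342% in wild-type replicate 1, against 3.57% to 6.78% in the other 10 libraries, and results that rest on these 2 libraries are given below with and without them. Lower counts of a gene in whole worms can reflect fewer cells of a type or less RNA per cell, and these cannot be told apart here.

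In the WBcel235 genome *fat-1* (WBGene00001393) lies at IV:13315644-13318811 and *fat-2* (WBGene00001394) at IV:13323850-13326394, both on the plus strand, with 1 other gene in the 5038 bp between them. *fat-4* at IV:9799429-9802638 and *fat-3* at IV:9803023-9806119 are direct neighbours on the plus strand, 384 bp apart. The delta-9 genes are dispersed, *fat-5* at V:17725004-17726818 (plus strand), *fat-6* at IV:11913691-11915796 (minus strand) and *fat-7* at V:7151353-7153146 (minus strand). The genes that overlap *fat-5* and *fat-6* are on the opposite strand, and counting used the strand. *fat-6* and *fat-7* are close paralogs, and read pairs that aligned to both were not counted, so their levels may be understated and the split between them carries that uncertainty.

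Levels of different genes were compared as library-scaled counts (CPM, the count of a gene relative to the TMM-scaled size of its library) per kilobase of coding sequence. In wild type *fat-2* was the highest (644 ± 94.5 CPM per kilobase), followed by *fat-1* (448 ± 37.7), *fat-6* (389 ± 46.6), *fat-7* (246 ± 36.7), *fat-4* (229 ± 17.3), *fat-3* (98.4 ± 10.1) and *fat-5* (57.0 ± 11.7; mean ± SD, n = 3 each). The libraries of *fat-1* and *fat-6* overlapped, as did those of *fat-7* and *fat-4*, and the other neighbours in this order did not overlap. The mean levels had the same order in the *gsr-1a* and *trxr-2* single mutants. In the double mutant *fat-7* stood below *fat-4* and *fat-3* at 60.7 ± 36.6 CPM per kilobase, with libraries that overlapped those of *fat-3* (91.9 ± 20.8), and *fat-5* remained the lowest at 15.5 ± 10.1 CPM per kilobase (n = 3 each).

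**Figure D1:**
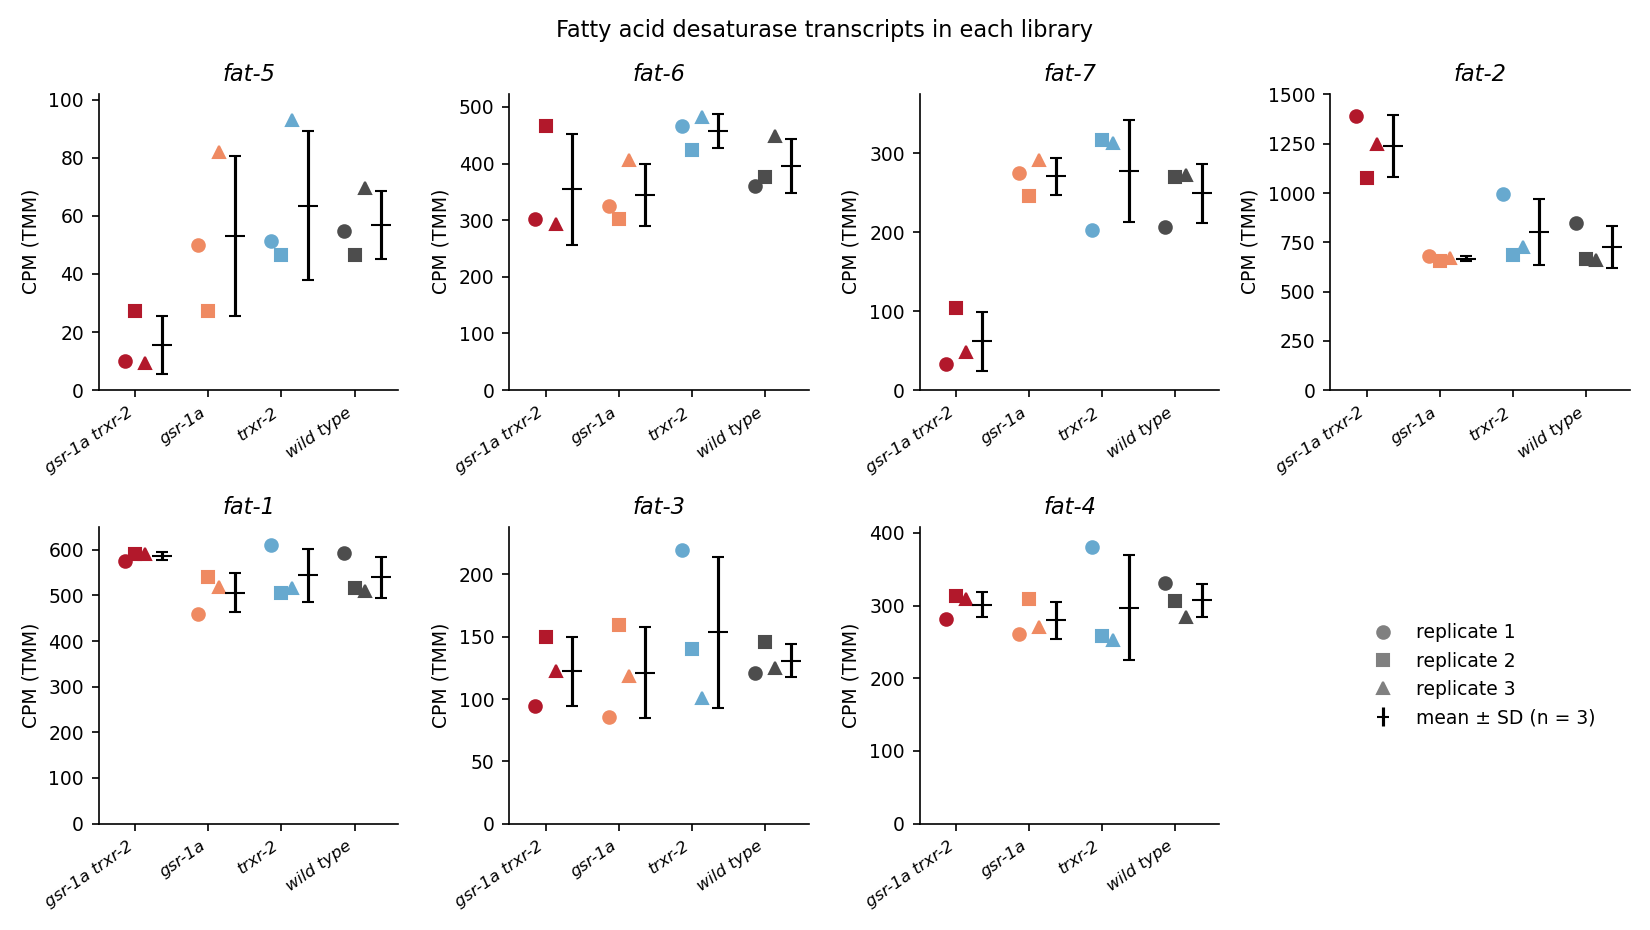
Level of each desaturase gene in every library, as CPM after TMM scaling (vertical axes, linear and from 0), for the double mutant, both single mutants and wild type. Points are libraries, with a shape for each replicate number, and bars are the mean ± SD of 3 libraries; *fat-7* lies between 33.0 and 103.6 CPM in the double mutant, below every other library.

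The comparison of the double mutant with wild-type controls asked what the loss of both mitochondrial reductases does to desaturase transcripts. *fat-7* and *fat-5* fell, to 0.247 and 0.273 of their wild-type levels, *fat-2* rose 1.70-fold, and the other 4 members did not pass the test. *fat-7*, encoding a stearoyl-CoA desaturase, had 33.0, 103.6 and 48.2 CPM in the double mutant, against 206, 269 and 272 CPM in wild type. The groups did not overlap. Its log2 fold change was -2.02 (SE 0.35, adjusted p = 0.00296, edgeR quasi-likelihood test), with a 95% interval of 0.146 to 0.418 for its level relative to wild type, and 18 of the 15004 genes tested had a lower log2 fold change. *fat-5*, encoding the palmitoyl-CoA desaturase, had 10.1, 27.1 and 9.18 CPM in the double mutant, against 54.9, 46.4 and 69.5 CPM in wild type, again without overlap. Its log2 fold change was -1.87 (SE 0.47, adjusted p = 0.0172), with a 95% interval of 0.134 to 0.558 for its level relative to wild type. *fat-6*, the other stearoyl-CoA desaturase gene, had 303, 467 and 294 CPM in the double mutant, against 360, 377 and 449 CPM in wild type. Its groups overlapped, with double-mutant replicate 2 above all wild-type libraries, and its log2 fold change was -0.16 (95% interval -0.58 to 0.26, adjusted p = 0.601).

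Among the genes of the later steps, *fat-2*, encoding the enzyme that makes linoleic acid, had 1390, 1077 and 1246 CPM in the double mutant, against 849, 667 and 662 CPM in wild type. The groups did not overlap, and the log2 fold change was 0.77 (SE 0.18, adjusted p = 0.0123), with a 95% interval of 1.30 to 2.24 for the fold. *fat-1*, the omega-3 desaturase gene, was nearly even across double-mutant libraries at 576 to 591 CPM, within the wild-type range of 511 to 592 CPM (log2 fold change 0.12, 95% interval -0.17 to 0.41, adjusted p = 0.562). *fat-3* had 94.3, 150 and 122 CPM in the double mutant, against 121, 146 and 125 CPM in wild type (log2 fold change -0.10, 95% interval -0.72 to 0.52). *fat-4* had 282, 313 and 309 CPM in the double mutant, against 331, 306 and 285 CPM in wild type (log2 fold change -0.03, 95% interval -0.38 to 0.33). For these 3 genes the libraries of both strains overlapped.

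Of all genes tested, 12.5% were called higher and 6.3% lower in this comparison, and 45.6% had groups that did not overlap. Of the 7 members 1 was called higher and 2 lower, and these 3 were also the members without overlap. The median log2 fold change was -0.10 over the members and 0.03 over all genes tested. The call of *fat-7* held with each library left out in turn. That of *fat-5* was lost without double-mutant replicate 1 (adjusted p = 0.079) or replicate 3 (adjusted p = 0.0826), and that of *fat-2* without wild-type replicate 2 (adjusted p = 0.0526). With wild-type and *trxr-2* replicate 1 both left out, an alternative chosen after seeing the data, 1 member was called higher and 2 lower, as before.

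**Figure D2:**
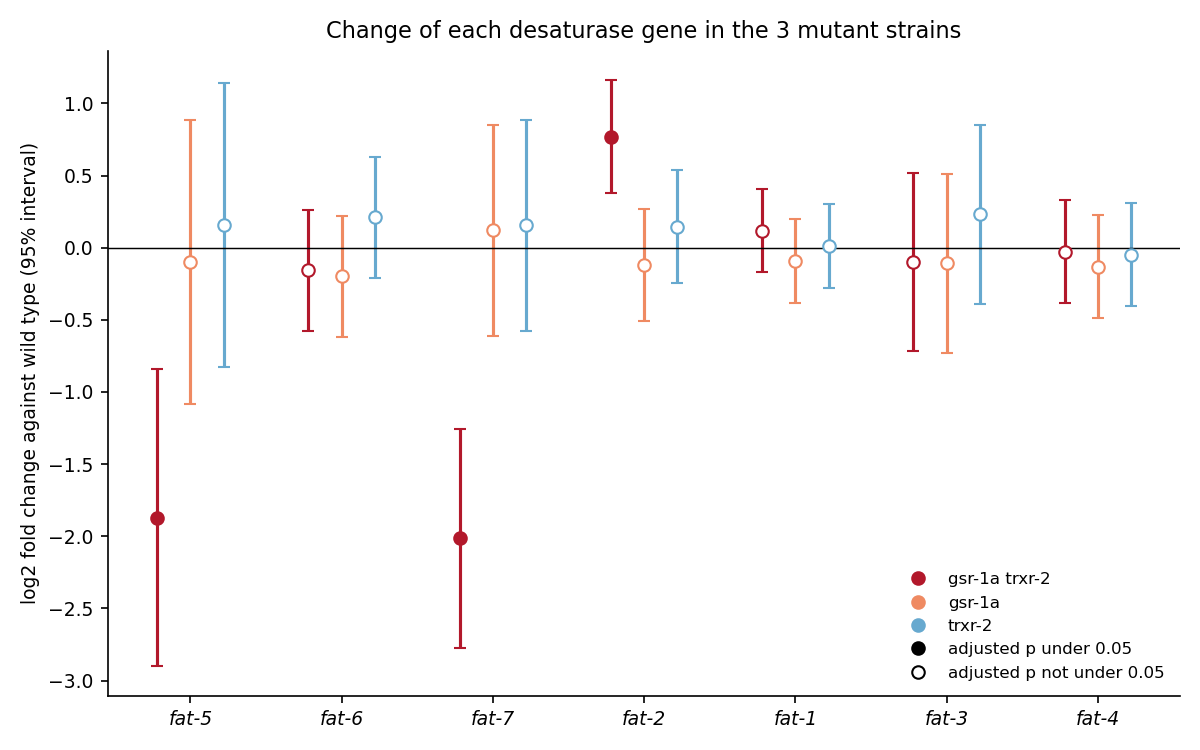
Log2 fold change against wild type (vertical axis) of each desaturase gene in the double mutant and both single mutants, with 95% intervals from the edgeR fit of 12 libraries. Filled points have an adjusted p under 0.05, which holds for *fat-5* (-1.87), *fat-7* (-2.02) and *fat-2* (0.77) in the double mutant and for no gene in the single mutants.

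Neither single mutation alone moved a desaturase gene past the test. *fat-7* had 275, 245 and 292 CPM in the *gsr-1a* mutant and 203, 316 and 313 CPM in the *trxr-2* mutant, which overlapped the wild-type libraries in both cases. The log2 fold change of *fat-7* against wild type was 0.12 (95% interval -0.61 to 0.85) in the *gsr-1a* mutant and 0.15 (95% interval -0.57 to 0.88) in the *trxr-2* mutant. *fat-5* had 49.9, 27.3 and 82.1 CPM in the *gsr-1a* mutant and 51.3, 46.4 and 92.9 CPM in the *trxr-2* mutant. The low value of *gsr-1a* replicate 2 is close to that of double-mutant replicate 2, and the intervals of *fat-5* were wide, -1.08 to 0.88 in the *gsr-1a* and -0.83 to 1.14 in the *trxr-2* mutant (log2). *fat-2* had 678, 654 and 671 CPM in the *gsr-1a* mutant and 996, 687 and 727 CPM in the *trxr-2* mutant. The 2 libraries low in yolk transcripts, *trxr-2* replicate 1 and wild-type replicate 1, had the highest *fat-2* level of their strain, and both stayed below all 3 double-mutant libraries. These libraries also stood apart in other tissue markers, given below. *trxr-2* replicate 1 was also the highest of all libraries for *fat-3* (220 CPM) and *fat-4* (381 CPM). With the edgeR test 0 of 7 members were called in either single mutant, 0 of 7 had an unadjusted p under 0.05, and DESeq2 called 0. Over all genes 0.0267% were called in the *gsr-1a* and 0.0666% in the *trxr-2* mutant, while 8.26% in the *gsr-1a* and 5.85% in the *trxr-2* mutant had an unadjusted p under 0.05. The median log2 fold change in the *gsr-1a* mutant was -0.11 over the members and 0.00 over all genes. In the *trxr-2* mutant it was 0.15 over the members and -0.04 over all genes.

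Set against the *gsr-1a* single mutant, the double mutant had lower *fat-7* (log2 fold change -2.13, SE 0.35, adjusted p = 0.00615) and higher *fat-2* (0.89, SE 0.18, adjusted p = 0.0213). *fat-5* was lower in every double-mutant library than in any *gsr-1a* library, by a narrow margin of 27.1 against 27.3 CPM, and did not pass the test (log2 fold change -1.77, SE 0.47, adjusted p = 0.0597). *fat-1* was likewise higher in every double-mutant library, at 576 to 591 CPM against 459 to 540 CPM, without passing it (log2 fold change 0.21, adjusted p = 0.397). Over all genes 32.8% did not overlap between these strains, 3.17% were called higher and 0.407% lower. The call of *fat-7* was lost without double-mutant replicate 3 (adjusted p = 0.0555), and *fat-5* gained one without double-mutant replicate 2 (adjusted p = 0.0119). With other single libraries left out the adjusted p of *fat-5* rose to as much as 0.237. The call of *fat-2* was lost without double-mutant replicate 1 (adjusted p = 0.0705) or 3 (adjusted p = 0.0591) and without *gsr-1a* replicate 2 (adjusted p = 0.0894) or 3 (adjusted p = 0.11).

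Against the *trxr-2* single mutant, *fat-7* (log2 fold change -2.17, SE 0.35, adjusted p = 0.00191) and *fat-5* (-2.03, SE 0.47, adjusted p = 0.013) were lower and *fat-2* (0.62, SE 0.18, adjusted p = 0.0414) was higher in the double mutant. None of these 3 genes overlapped between the strains, and neither did 27.7% of all genes. *fat-6* had 303, 467 and 294 CPM in the double mutant, against 467, 424 and 482 CPM in the *trxr-2* mutant, and did not pass the test (log2 fold change -0.37, adjusted p = 0.334). Over all genes 10.8% were called higher and 0.853% lower. The call of *fat-7* held with each library left out, whereas *fat-5* lost its call without double-mutant replicate 1 (adjusted p = 0.07), double-mutant replicate 3 (adjusted p = 0.0685) or *trxr-2* replicate 3 (adjusted p = 0.0631). *fat-2* lost its call without double-mutant replicate 1 (adjusted p = 0.127) or 3 (adjusted p = 0.0944) and without *trxr-2* replicate 2 (adjusted p = 0.121) or 3 (adjusted p = 0.167), and *fat-6* was called without double-mutant replicate 2 (log2 fold change -0.62, adjusted p = 0.0392). These 3 comparisons share the double-mutant libraries and are not independent of each other.

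The interaction of both mutations asks whether the double mutant departs from the sum of the single-mutant changes on the log2 scale. It was -2.29 for *fat-7* (SE 0.48, 95% interval -3.33 to -1.24, adjusted p = 0.0547), -1.93 for *fat-5* (SE 0.65, adjusted p = 0.239) and 0.74 for *fat-2* (SE 0.25, adjusted p = 0.244). With the edgeR quasi-likelihood test 0 of 7 members passed, against 0.766% of all genes with that same test. DESeq2 called 1 member, *fat-7* (adjusted p = 0.00049). These 3 members had an unadjusted p under 0.05, as did 11.1% of all genes. The value of *fat-7* thus lies close to the threshold. It passed without *trxr-2* replicate 1 (adjusted p = 0.0385) or double-mutant replicate 2 (adjusted p = 0.00173), and *fat-5* passed without double-mutant replicate 2 (adjusted p = 0.0455). With other single libraries left out the edgeR adjusted p rose to as much as 0.191 for *fat-7*, 0.521 for *fat-5* and 0.509 for *fat-2*. Of 21 alternative settings, 12 left *fat-7* uncalled and 9 called it. Over all genes the calls in these settings, DESeq2 among them, ranged from 46 to 453 higher and 2 to 114 lower (109 and 6 in the main fit). Without wild-type and *trxr-2* replicate 1 together, *fat-7* (adjusted p = 0.0349) and *fat-2* (adjusted p = 0.0364) passed. With the replicate number as a block in the edgeR fit, *fat-7* passed as well (-2.40, adjusted p = 0.0257). Over all genes that fit called 129 higher and 13 lower in the interaction.

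Taken as groups, the delta-9 genes were set against *fat-1* to *fat-4* within each library, which is a description and was not tested. The mean log2 CPM of *fat-5*, *fat-6* and *fat-7* minus that of the other 4 genes was -3.03, -1.92 and -3.01 in the double mutant. It was -0.81, -1.52 and -0.61 in the *gsr-1a* mutant, -1.49, -0.86 and -0.38 in the *trxr-2* mutant and -1.24, -1.07 and -0.70 in wild type. All 3 double-mutant libraries lay below the other 9, and the strain mean was lower than in wild type by 1.65 log2 units (mean -2.65 ± 0.63 in the double mutant and -1.003 ± 0.28 in wild type, SD, n = 3 each). The mean of the other 4 genes was 8.65 ± 0.06 log2 CPM in the double mutant and 8.46 ± 0.09 in wild type. Within the delta-9 group *fat-5* and *fat-7* fell and *fat-6*, at -0.16, did not pass the test.

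The summed level of all 7 genes was 2325 ± 58.3 CPM per coding kilobase in the double mutant and 2110 ± 77.4 in wild type (SD, n = 3 each). The delta-9 genes made up 14.6%, 24.7% and 15.3% of that sum in the double mutant, against 27.9%, 33.5% and 37.2% in wild type. *fat-2* alone made up 47.3 ± 6.51% in the double mutant and 30.4 ± 3.40% in wild type, and *fat-7* made up 2.60 ± 1.51% in the double mutant and 11.7 ± 2.10% in wild type. The share of *fat-1* was 20.9 ± 0.64% in the double mutant and 21.2 ± 1.103% in wild type. A smaller part of the desaturase transcripts in the double mutant was thus of delta-9 genes, in all 3 libraries, a share that the rise of *fat-2* also lowers. The summed delta-9 level itself was 340, 588 and 346 CPM per coding kilobase in the double mutant, against 612, 683 and 779 in wild type. In *gsr-1a* replicate 2 it was 566, below double-mutant replicate 2.

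**Figure D3:**
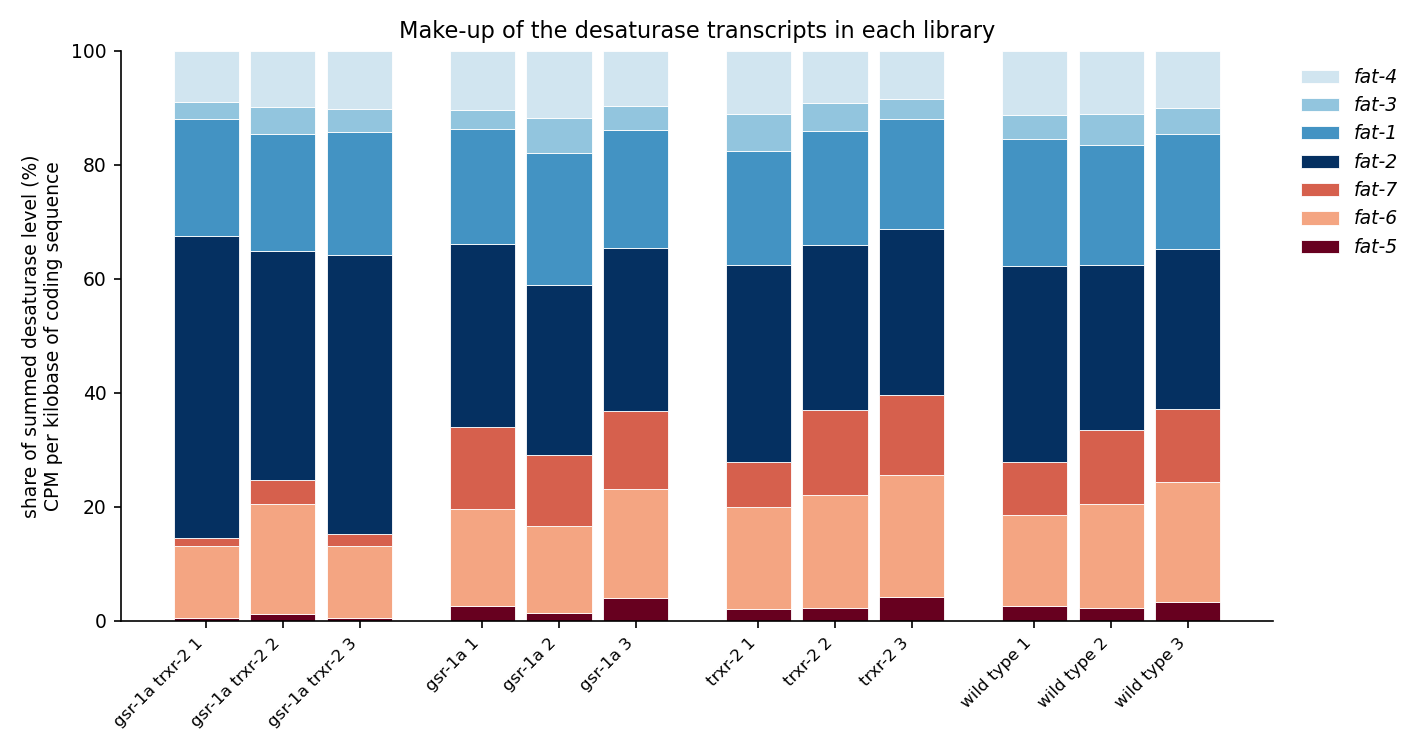
Share of each gene in the summed desaturase level of a library (vertical axis, percent of CPM per kilobase of coding sequence), 1 bar per library, from the double mutant at the left to wild type at the right. The red parts, the delta-9 genes, reach 14.6% to 24.7% in the double mutant and 27.9% to 37.2% in wild type, while the dark blue part of *fat-2* is widest in the double mutant.

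Ratios within a library do not depend on how libraries were scaled. The level of *fat-7* per coding kilobase relative to that of *fat-6* was 0.109, 0.222 and 0.165 in the double mutant, against 0.575, 0.716 and 0.607 in wild type. It was 0.848, 0.815 and 0.720 in the *gsr-1a* mutant and 0.435, 0.748 and 0.651 in the *trxr-2* mutant. Both stearoyl-CoA desaturase genes were thus closer in level in every library of the other 3 strains than in any double-mutant library. The ratio of *fat-5* to *fat-6* was 0.032 to 0.059 in the double mutant and 0.125 to 0.158 in wild type. The ratio of *fat-7* to *fat-5* overlapped between strains, with 3.21 to 5.17 in the double mutant and 3.70 to 5.72 in wild type. The ratio of *fat-2* to *fat-1* was 2.58, 1.95 and 2.25 in the double mutant, against 1.53, 1.38 and 1.39 in wild type, and was at most 1.74 in the single mutants. *fat-3* and *fat-4*, which lie side by side, kept overlapping ratios of 0.338 to 0.482 in the double mutant and 0.369 to 0.482 in wild type.

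**Figure D4:**
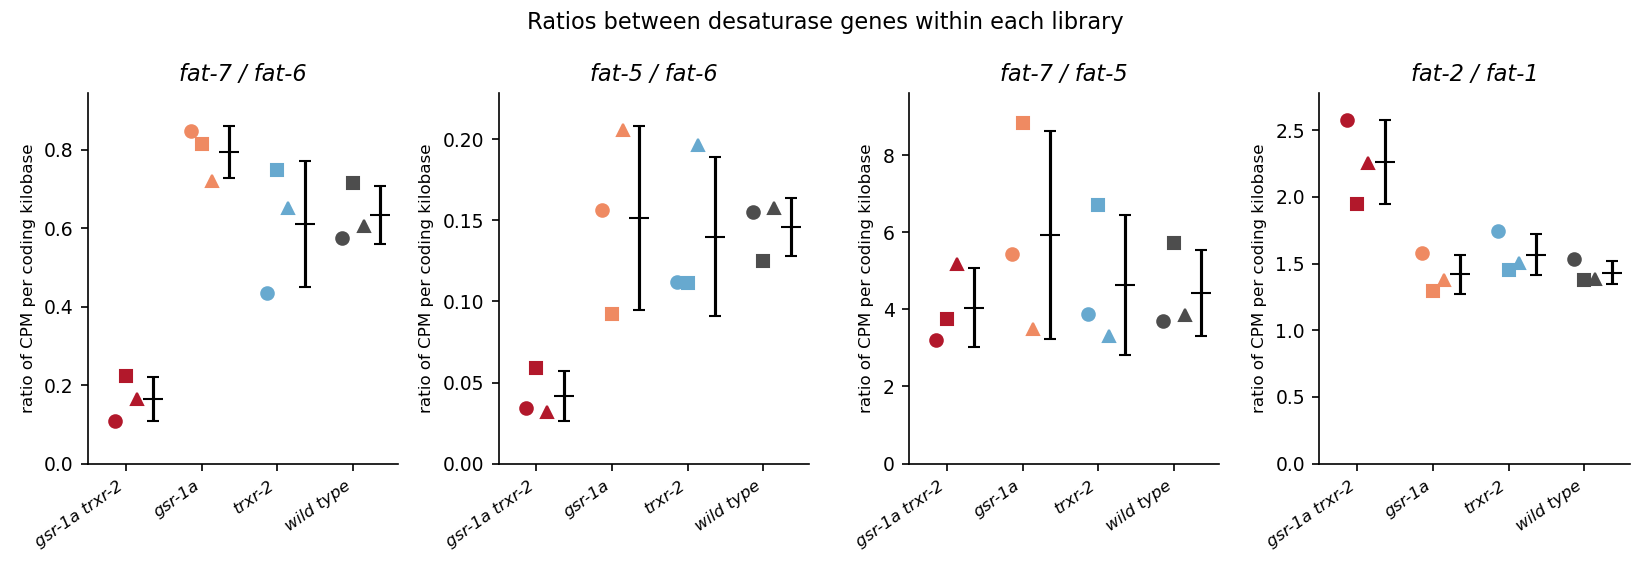
Ratios between desaturase genes within each library, as levels per coding kilobase (vertical axes, linear and from 0), for the double mutant, both single mutants and wild type. Points are libraries (circle, square and triangle for replicates 1, 2 and 3) and bars are the mean ± SD of 3 libraries; the double mutant is set apart in *fat-7* to *fat-6*, *fat-5* to *fat-6* and *fat-2* to *fat-1*, and overlaps the rest in *fat-7* to *fat-5*.

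The genes most like each delta-9 gene were found by the SD of the log2 ratio over the 12 libraries, among 9444 genes with a mean of at least 5 CPM. For *fat-7* the closest gene was *fat-5* (SD 0.46), followed by the C-type lectin gene *clec-218* (0.49) and the lysozyme gene *ilys-5* (0.50). For *fat-5* the closest was in turn *fat-7*, followed by *K09C4.5* (0.47) and *ilys-5* (0.62). The log2 CPM of *fat-7* itself had an SD of 1.1004 over these libraries and that of *fat-5* an SD of 1.07. *ilys-5* had 157 ± 34.9 CPM in the double mutant and 574 ± 161 CPM in wild type (SD, n = 3 each), as its likeness to both genes entails. *fat-6* ranked in position 1031 for *fat-7* and 223 for *fat-5*. Its own closest genes were *nhr-78* (SD 0.18), a nuclear hormone receptor gene, *smp-2* (0.18) and *pdi-6* (0.20). These likenesses describe 12 libraries in 4 strains and carry no test.

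Other genes of fatty acid metabolism were read from lists of enzymes and regulators. Their counts are to be read beside the 12.5% called higher and 6.3% called lower among all genes tested. Elongases lengthen fatty acyl chains. Of 12 genes of chain elongation tested, 2 were called higher and 3 lower in the double mutant than in wild type. The list holds the elongase genes *elo-1* to *elo-9* and also *let-767*, *hpo-8* and *art-1*, which encode other enzymes of elongation and were not called. *hpo-8* is also in the list of fatty acid synthesis. *elo-5*, needed for branched-chain fatty acids, had 130, 187 and 138 CPM in the double mutant, against 340, 248 and 278 CPM in wild type (log2 fold change -0.93, adjusted p = 0.00884). *elo-9* was also lower (-0.76, adjusted p = 0.0146), and *elo-8* (2.03, adjusted p = 0.00517) and *elo-7* (2.10, adjusted p = 0.0129) were higher, at no more than 4.26 CPM in any library. The remaining call was a lower *elo-6* (-0.78, adjusted p = 0.0311), which acts with *elo-5* in branched-chain synthesis, while *elo-1* and *elo-2*, which lengthen polyunsaturated and saturated chains, had -0.21 (adjusted p = 0.277) and 0.03 (adjusted p = 0.905). These last 3 were chosen after their values were seen. The list's median log2 fold change was -0.01.

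Of 8 genes known to depend on NHR-49, as the delta-9 genes also do, 0 were called higher and 2 lower. Among all genes tested these shares were 12.5% and 6.3%. The list's median log2 fold change was -0.17. *ech-1.1*, encoding a beta-oxidation enzyme, had 2.43, 3.41 and 2.03 CPM in the double mutant, against 5.29, 9.09 and 8.43 CPM in wild type (log2 fold change -1.53, adjusted p = 0.00296), and *cpt-5*, a carnitine palmitoyltransferase gene, had -1.15 (adjusted p = 0.00709). Both groups of libraries were apart, as were those of 45.6% of all genes tested. *ech-1.1* has a close paralog, so its counts share the uncertainty of *fat-6* and *fat-7*. The other members did not pass, among them the acyl-CoA synthetase gene *acs-2* (0.47, adjusted p = 0.43), *hacd-1* (-0.48, adjusted p = 0.144), *fmo-2* (1.25, adjusted p = 0.309) and the glyoxylate cycle gene *icl-1* (1.20, adjusted p = 0.0637).

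Of 16 known regulators of desaturases 1 was called higher and 1 lower, with a median of 0.19. Among all genes tested 12.5% were called higher, 6.3% lower, and 45.6% had groups that did not overlap. *paqr-2*, encoding a membrane fluidity sensor that promotes *fat-7* expression, had 51.5, 53.97 and 54.7 CPM in the double mutant, against 63.0, 69.0 and 64.8 CPM in wild type, a small change without overlap (log2 fold change -0.30, SE 0.09, adjusted p = 0.0388). *pqm-1*, a zinc finger transcription factor gene, was higher (0.71, SE 0.21, adjusted p = 0.0363). Transcripts of the other listed regulators did not pass the test, among them *nhr-49* at -0.17 (adjusted p = 0.398), *nhr-80* at 0.30 (adjusted p = 0.181), *nhr-13* at -0.25 (adjusted p = 0.195) and *nhr-66* at 0.05 (adjusted p = 0.886). The same held for *mdt-15* at 0.38 (adjusted p = 0.407), *sbp-1* at 0.55 (adjusted p = 0.129) and the PAQR-2 partner *iglr-2* at -0.37 (adjusted p = 0.117).

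Of 21 acyl-CoA synthetases 4 were called higher (*acs-18* at 2.29, *acs-15* at 2.56, *acs-10* at 2.12 and *acs-6* at 1.29, log2) and 1 lower, *acs-22* (-0.61), named after its value was seen. Of 30 genes of acyl-CoA dehydrogenases and mitochondrial beta-oxidation 3 were higher, *acdh-4* (1.16) and *acdh-8* (2.07) among them, and 3 lower. The lower genes were *acdh-2* (-0.67) and, shared with the NHR-49 list and already given there, *ech-1.1* and *cpt-5*. Of 25 genes of phospholipid and triglyceride synthesis 2 were higher (*acl-7* at 1.06 and *acl-13* at 1.59) and 2 lower (*cept-1* at -0.65 and *acl-5* at -0.39). The edgeR test called 0 of 8 genes of fatty acid synthesis (2 with an unadjusted p under 0.05), 0 of 9 lipid binding proteins, 0 of 3 genes of cytochrome b5 and its reductases, which pass electrons to desaturases, and 0 of 1 other desaturase-like gene, *ttm-5* (none of these with an unadjusted p under 0.05). The medians of these lists lay between -0.23 and 0.30, against 0.03 over all genes tested, of which 12.5% were called higher and 6.3% lower. In the single mutants and in the interaction 0 of the 125 list genes were called by edgeR, with 9 at an unadjusted p under 0.05 in the *gsr-1a* mutant, 2 in the *trxr-2* mutant and 12 in the interaction. That is 7.2% of them in the *gsr-1a* mutant (8.26% of all genes tested), 1.6% in the *trxr-2* mutant (5.85%) and 9.6% in the interaction (11.1%).

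**Figure D5:**
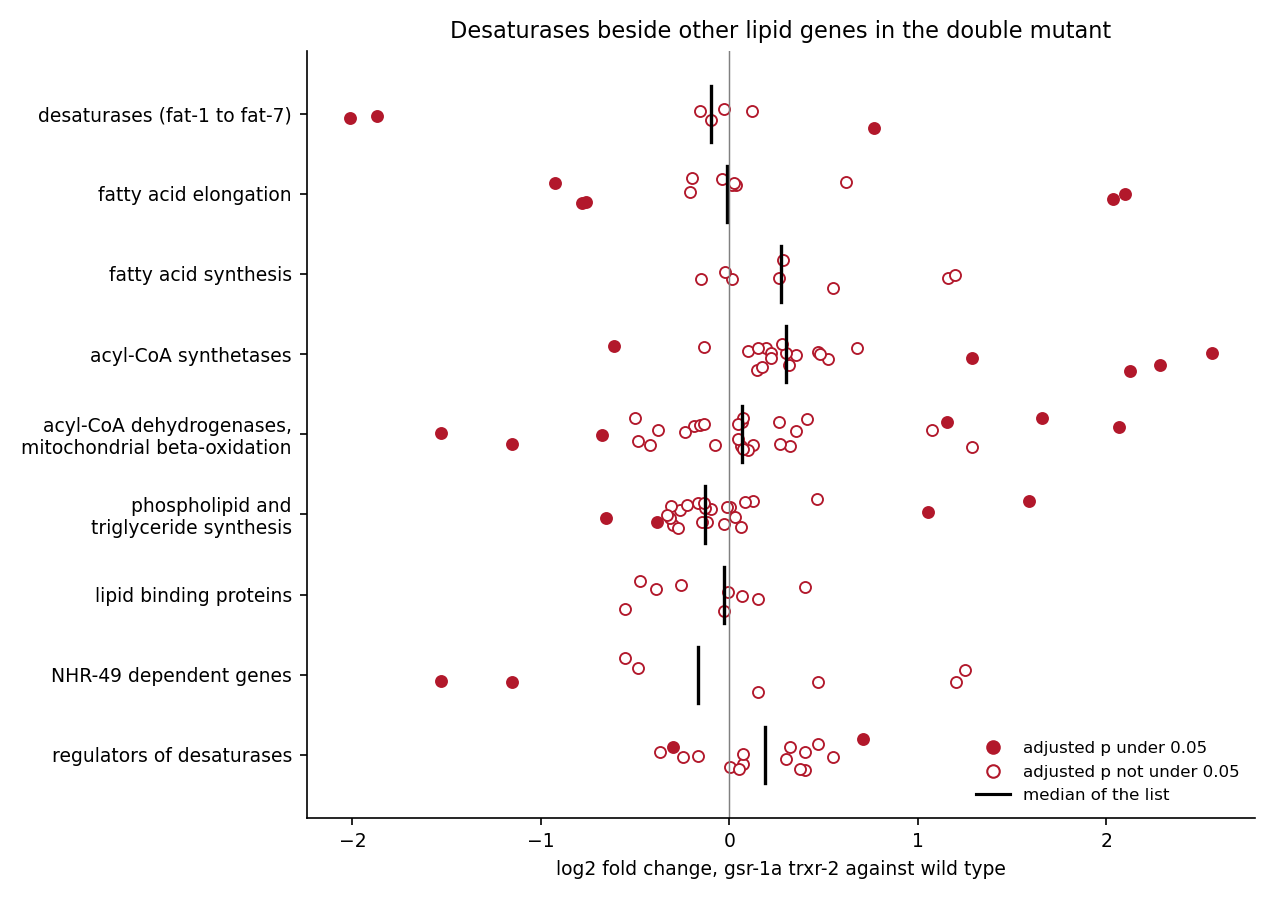
Log2 fold change of the double mutant against wild type (horizontal axis) for the desaturases and for 8 lists of other lipid genes, 1 point per gene, filled where the adjusted p was under 0.05, with a black line at the median of each list. *fat-7* (-2.02) and *fat-5* (-1.87) have the lowest values in the plot, and the medians of the 8 other lists lie between -0.17 and 0.30.

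Marker genes of some tissues moved beside these results. Their counts, too, are to be read against 12.5% called higher and 6.3% lower among all genes tested. Of 8 intestinal markers 3 were called higher in the double mutant, *ges-1*, *ifb-2* and *vha-6*, and 0 lower. Values of 5 lay above 0 and of 3 below, those of *elt-7* (-0.58, adjusted p = 0.0687), *pept-1* (-0.25, adjusted p = 0.39) and *spl-1* (-0.19, adjusted p = 0.247), with a median log2 fold change of 0.22. The summed level of the 8 was 1449 to 1666 CPM in the double mutant and 901 to 1193 CPM in wild type, with none of them at 0. The edgeR test called 0 of the 6 yolk protein genes, which the intestine makes (1 had an unadjusted p under 0.05), 4 of them lay below 0, and their median was -0.90. They summed to 34535 to 40968 CPM in the double mutant and 3002 to 46121 CPM in wild type, where replicate 1 was the low library. The 7 sperm markers tested were all called higher, with a summed level of 110 to 238 CPM over the list in the double mutant and 28.5 to 49.5 CPM in wild type, and a value above 0 for each. Of 6 hypodermal markers 2 were called higher and 0 lower, with 4 values above 0 and 2 below, among them the cuticle collagen gene *dpy-7* (-1.05, adjusted p = 0.0563). Of 6 neuronal markers 1 was called higher and all 6 lay above 0, and of 5 early embryo markers 2 were called lower and 4 lay below 0. The edgeR test called 0 of 6 muscle, 0 of 7 germline and 0 of 11 oocyte markers. Of these, 6 muscle, 6 germline and 9 oocyte markers lay above 0, with medians of 0.57, 0.35 and 0.26. Double-mutant replicate 2, the library nearest to wild type for *fat-7*, *fat-5* and *fat-2*, also had the lowest summed sperm markers of its strain, 110 CPM against 226 and 238 CPM. The part of these differences in the desaturase values was not tested.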

How the data were processed

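Polyadenylated RNA of whole worms was sequenced on strand-specific libraries, 3 for each of 4 strains, and the replicates are described as independent. The authors deposited raw counts per gene, made according to the submitters' processing notes with FastQC, HISAT2, SAMtools and featureCounts 2.0.0 on WBcel235. Per the file headers, each gene of Ensembl release 97 received the read pairs on its strand from start to end, introns included, and pairs that fit several places or genes were dropped. Counts were scaled by TMM and filtered with filterByExpr by strain, and 15004 genes were fitted in edgeR 4.0.16 (R 4.3.3) with 1 mean per strain over 12 libraries (8 residual degrees of freedom). The quasi-likelihood test was used at 0.05 after Benjamini-Hochberg adjustment across these genes. The SE is the size of the log2 fold change over the square root of F. Log2 CPM used a prior count of 2. Coding lengths come from Ensembl release 115 of the same build. DESeq2 1.42.0 and other settings were alternatives. Scripts were tested on simulated data. The labels number the libraries of every strain from 1 to 3. Deviations from the strain means correlated at 0.13 to 0.23 for same-numbered *gsr-1a* and wild-type libraries. For *trxr-2* and wild type they correlated at 0.27 to 0.54, the highest being replicate 1. Of the 6 samples in each comparison, 6 for *gsr-1a* and 3 for *trxr-2* correlated best with their own number. The numbers may thus pair these samples, which is read from the data and not from a stated batch. The main fit has no term for the replicate number, so its single-mutant intervals and p-values leave out such a pairing. A fit with the number as a block is given below as an alternative, and it called 0 members in either single mutant. The desaturases and gene lists were chosen with earlier results of these data known. All 7 desaturases were named, as were the 3 genes most like each delta-9 gene, up to 4 called genes with the smallest adjusted p per list, and any gene of the regulator and NHR-49 lists. A planned search of promoter motifs was not run, as promoter sequences were not used here.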

Additional observations from a re-analysis of the deposited data

How the results depend on the processing

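Across 16 alternatives per comparison (21 for the interaction) the 42 log2 fold changes of the desaturases gave 707 refitted values, of which 620 kept their sign and their side of the threshold, 21 lost a call, 18 gained one and 48 changed sign. None of the sign changes was in a value called with all libraries. *fat-7* stayed called in the double mutant against wild type under all 16, with log2 fold changes of -2.62 to -1.70. With a fold over 2 required as well, the number of members called higher was 0 in the double mutant against wild type, *gsr-1a* and *trxr-2*, and against *trxr-2* it was also 0 with a filter of over 1 CPM in at least 3 libraries and with only the strains compared. With the 4 libraries numbered replicate 1 left out, 1 member was lower against wild type. Against *gsr-1a*, 2 members were lower with DESeq2, with the edgeR likelihood ratio test, with no filter, and with wild-type and *trxr-2* replicate 1 both left out. In the interaction 1 member, *fat-7*, was lower with DESeq2, the likelihood ratio test, no filter, the filter of 1 CPM, replicate 1 left out, and wild-type and *trxr-2* replicate 1 left out, and with these last 2 settings 1 member, *fat-2*, was higher.

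With the replicate number as a block, 1 member was lower in the interaction, *fat-7* at -2.40 (adjusted p = 0.0257), and no other call of a member changed. Same-numbered samples of the double mutant did not deviate together in every pair. Their correlations were -0.04 to 0.22 with wild type, -0.05 to 0.06 with *gsr-1a* and -0.08 to 0.06 with *trxr-2*. The labels give no batch, so these values cannot tell whether the double-mutant samples were handled with those of the same number. Of the 6 samples in each comparison, 2, 1 and 2 correlated best with their own number. Over all genes the block called 4 higher and 1 lower in *gsr-1a* and 4 higher and 5 lower in *trxr-2*. For the double mutant it called 2072 higher and 1506 lower against wild type, 454 and 100 against *gsr-1a* and 1680 and 203 against *trxr-2*. In the interaction it called 129 higher and 13 lower.

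With 1 library left out at a time, the members called in the double mutant ranged from 0 to 1 higher and 1 to 2 lower against wild type, 0 to 1 higher and 0 to 2 lower against *gsr-1a*, 0 to 1 higher and 1 to 3 lower against *trxr-2*, and 0 to 2 lower in the interaction. Sign changes were all of uncalled values. In *gsr-1a* against wild type the values with 1 library left out were -0.18 to 0.01 for *fat-2*, -0.35 to 0.09 for *fat-3* and -0.57 to 0.22 for *fat-5*. In *trxr-2* against wild type they were -0.08 to 0.09 for *fat-1*, -0.04 to 0.28 for *fat-2*, -0.12 to 0.46 for *fat-3*, -0.27 to 0.06 for *fat-4* and -0.22 to 0.36 for *fat-5*. In the double mutant they were -0.28 to 0.07 for *fat-3* and -0.09 to 0.03 for *fat-4* against wild type, -0.19 to 0.25 for *fat-3* and -0.21 to 0.17 for *fat-6* against *gsr-1a*, -0.56 to 0.02 for *fat-3* and -0.09 to 0.23 for *fat-4* against *trxr-2*, and -0.46 to 0.13 for *fat-3* in the interaction. With replicate 1 of every strain left out, signs also changed for *fat-1* (0.03), *fat-3* (0.02) and *fat-7* (-0.02) in *gsr-1a*, *fat-3* (-0.14) in *trxr-2* and *fat-4* (0.07) in the double mutant against wild type, and for *fat-3* in the double mutant against *gsr-1a* (-0.02), against *trxr-2* (0.14) and in the interaction (0.11). With wild-type and *trxr-2* replicate 1 left out they changed for *fat-2* in *gsr-1a* (0.01), *fat-1* (-0.01) and *fat-3* (-0.17) in *trxr-2*, *fat-4* (0.02) in the double mutant against wild type, and *fat-3* against *trxr-2* (0.02) and in the interaction (0.17). *fat-4* in *trxr-2* against wild type was 0.0001 with the 1 CPM filter and 0.0003 with only the strains compared, and in the double mutant against *trxr-2* it was -0.03 with DESeq2 and with RLE size factors and -0.05 with the 1 CPM filter.

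The delta-9 difference of the double mutant from wild type, -1.65, was -1.65 with RLE size factors, -1.15 from summed CPM and -1.58 without replicate 1. Per kilobase of whole gene span, *fat-6* took position 2 in wild type and *fat-1* position 3. Over all genes, calls in the double mutant against wild type ranged from 1197 to 2132 higher (1879 with all libraries) and from 251 to 1746 lower (945), against *gsr-1a* from 141 to 1615 higher (475) and 12 to 1018 lower (61), against *trxr-2* from 1238 to 2274 higher (1619) and 53 to 1734 lower (128), and in the interaction from 46 to 453 higher (109) and 2 to 114 lower (6). With 3 libraries per strain, the wide intervals of *fat-5* limit what can be said of it in the single mutants.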
